A study of Mus musculus with 8 samples.

Results

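mt-7s and mt-Nd6, both RNAs made from the light-strand promoter of mouse mitochondrial DNA (mtDNA), were followed here. They are 2 of the 36 mtDNA features among the 49584 features counted in the series, and were chosen by name, as a feature beside that promoter and a feature far from it. The series compared hearts with and without TEFM, the elongation factor of the mitochondrial RNA polymerase. Total RNA of crude heart mitochondria was sequenced from 4 control mice, titled L/L, whose genotype field reads Tefm +/+, and from 4 knockout mice, titled L/L, cre, whose genotype field reads Tefm -/-. In the knockouts a loxP-flanked exon of Tefm was removed by cre driven by the muscle creatine kinase promoter, which drives expression in striated muscle, so cells of the heart other than muscle cells would keep the gene. The controls are taken to carry the loxP-flanked alleles without cre, since both titles read L/L. The labels do not state the ages, strain or sex of the animals.

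Mitochondrial DNA is transcribed from both strands as long RNAs that are then cut into single products. The light-strand promoter lies in the noncoding control region and drives an RNA that carries the mRNA for the complex I subunit ND6 and a set of tRNAs. Transcription from the same promoter can also stop early in the control region, which gives the short polyadenylated 7S RNA and the RNA primers of mtDNA replication. The other mRNAs and both rRNAs come from the heavy-strand transcript, which runs in the opposite direction.

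The mt-Nd6 gene (ENSMUSG00000064368.1) lies at chrM:13552-14070 of GRCm38 on the minus strand and is 519 bases long, a single coding exon between mt-Nd5 and mt-Cytb. Its 5′ end lies 1352 bases inside the edge of the last annotated gene before the control region, with mt-Tp and mt-Te on the way. The position and sequence of the mt-7s feature, which the authors added to the annotation, are in none of the sources used here. The first bases of mt-Nd6 (chrM:13981-14070, minus strand) and of its heavy-strand neighbour mt-Cytb (chrM:14145-14234, plus strand) are shown because the strands differ in composition, with each G in capitals:
mt-Nd6: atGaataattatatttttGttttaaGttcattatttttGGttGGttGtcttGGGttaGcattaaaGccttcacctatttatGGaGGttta
mt-Cytb: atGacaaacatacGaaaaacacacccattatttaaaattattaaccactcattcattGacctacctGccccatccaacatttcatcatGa
Over its whole length mt-Nd6 is 28.1% G and 5.97% C, whereas the 12 heavy-strand mRNAs are 5.88% to 16.1% G and 22.1% to 30.0% C. All 8 light-strand tRNAs also hold more G than C, as against 3 of 14 heavy-strand tRNAs. The 3′ ends of mt-Nd6 (chrM:13552-13611, minus strand) and mt-Nd5 (chrM:13506-13565, plus strand) are shown because the genes overlap by 14 bases, in capitals, which is 2.70% of mt-Nd6:
mt-Nd6: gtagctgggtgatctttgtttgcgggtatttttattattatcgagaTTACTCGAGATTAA
mt-Nd5: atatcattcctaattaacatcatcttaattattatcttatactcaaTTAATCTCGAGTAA
The labels do not state if strand was kept. Without strand, RNA of the heavy-strand transcript that crosses the mt-Nd6 region, or RNA of either strand in the control region, would be counted with mt-Nd6 and mt-7s and cannot be told apart from them.

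Library totals ran from 21108165 to 27403415 counts. The part that came from mtDNA was 72.3% to 74.0% in controls, and in the knockouts 59.3% in replicate 1 and 38.7% to 44.2% in replicates 2 to 4. Knockout replicate 1 therefore stood apart, and results are also given without it. Since nuclear RNA made up more of the knockout libraries, a value scaled to all RNA and a value scaled to mtDNA answer different questions, and both are given. The nuclear RNA here is what came along with the crude mitochondria, so its part may also vary with their purity, which was not tested. Less RNA per cell, fewer cells of a type and less of their RNA carried along with the mitochondria cannot be told apart in these samples. In edgeR's quasi-likelihood test 26.1% of all features tested were called higher and 23.9% lower in knockouts. Of 5 heart muscle markers 4 fell, with a summed level of 11618 to 12387 counts per 1000000 counts after scaling (CPM) in controls and 5884 to 8706 in knockouts, while no skeletal muscle marker had enough counts to test. Endothelial markers summed to 270.2 to 283 CPM in controls and 234 to 259 in knockouts (1 of 3 fell), fibroblast markers to 141 to 159 and 162 to 212 (1 of 3 rose), leukocyte markers to 53.9 to 78.0 and 36.1 to 56.8 (2 of 3 fell) and red cell markers to 167 to 419 and 159 to 831 (0 of 4 called). The part of these shifts in the results on mt-7s and mt-Nd6 was not tested.

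The balance between the promoter-near and the distant light-strand RNA shifted towards mt-7s in the knockout hearts. For every 100 counts of mt-Nd6 the control libraries held 2.01, 1.38, 1.93 and 1.34 counts of mt-7s, and the knockout libraries 14.0, 25.3, 18.2 and 23.5. The groups did not overlap, and the lowest knockout value, in replicate 1, was still several times the highest control value. The mean ratio was 1.66 ± 0.355 for controls and 20.3 ± 5.14 for knockouts (SD, n = 4 each). On the log2 scale, with 0.5 added to each count, the ratio rose by 3.58, a 12.0-fold change (exact permutation test, both sides, over 70 relabelings, p = 0.0286, which is the smallest p this design allows; 0.0286 after Benjamini-Hochberg adjustment over 9 measures). It rose by 3.75 without knockout replicate 1. A rise of like size, 3.61, was found for the log2 ratio of mt-7s to mt-Co1, a heavy-strand mRNA. Of all 105 pairs of tested mtDNA features 82.9% had ratios that did not overlap between the groups. The ratio of mt-7s to mt-Nd6 does not depend on how much nuclear RNA a library held. Its precision is set by mt-7s: counting error alone gave 95% exact binomial intervals of 0.914 to 1.90 for the lowest control library and 10.5 to 18.4 for the lowest knockout library, and those of the groups did not meet. The reads carry no molecular identifiers and may repeat 1 molecule, so intervals cover counting error only.

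**Figure D1:**
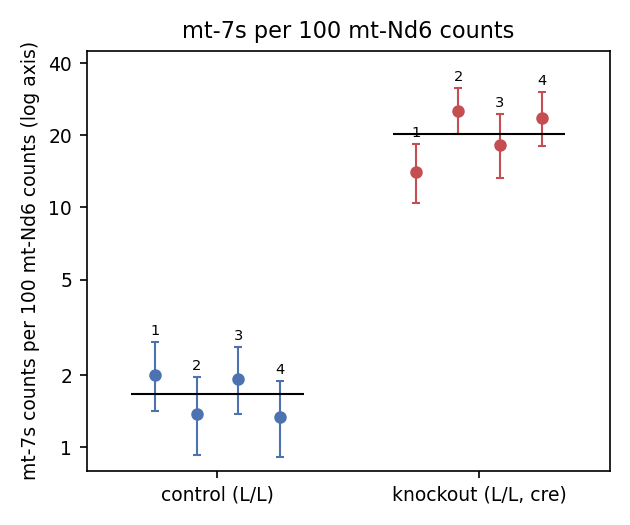
Counts of mt-7s per 100 counts of mt-Nd6 (log axis) in each library, with points labelled by replicate number, bars for the 95% exact binomial interval and a line at the group mean. The 4 knockout libraries lie between 14.0 and 25.3, above the control libraries at 1.34 to 2.01.

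mt-7s, the short RNA from beside the light-strand promoter, was a rare feature in all libraries. It held 39, 31, 41 and 32 counts in controls 1 to 4 and 59, 102, 52 and 76 in knockouts 1 to 4. All 4 knockout counts were above all 4 control counts. The knockout libraries were smaller in total but held more nuclear counts, 10331611 to 13204546 against 6825329 to 7596951 in controls. As parts per 1000000 mtDNA counts (ppm) these were 1.98, 1.61, 2.11 and 1.62 in controls and 3.92, 10.3, 6.25 and 8.36 in knockouts. The share of mtDNA counts rose from 1.83 ± 0.253 to 7.20 ± 2.74 ppm (SD, n = 4 each), a 3.94-fold difference of means (exact permutation test, p = 0.0286; adjusted p = 0.0286). The difference was 5.37 ppm, and 6.47 without knockout replicate 1. The denominator changed too. Its largest feature was the rRNA mt-Rnr2. Scaled by TMM, which is set mostly by the many nuclear genes, mt-Rnr2 had 745731 CPM in controls and 158960 in knockouts (log2 fold change -2.23, SE 0.33). Such scaled levels are not shares of a library or of its mtDNA counts. In a fit of the mtDNA features alone, scaled to each other, mt-Rnr2 did not pass (0.13, SE 0.15, edgeR, adjusted p = 0.421). With rRNAs left out of the denominator the share of mt-7s still rose, by 39.1 ppm of the remaining mtDNA counts (exact permutation test, p = 0.0286).

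The gain of mt-7s over other mtDNA RNA was also seen against the heavy-strand mRNAs, though not against the rRNA mt-Rnr1, described below. Relative to the heavy-strand mRNA counts mt-7s stood at 10.03, 7.94, 10.5 and 8.04 ppm in controls and at 35.7, 65.5, 38.4 and 53.5 ppm in knockouts. The knockout values were all higher, and they differed among each other more than the control values did. The log2 ratio rose by 2.36, or 5.14-fold (exact permutation test, p = 0.0286; adjusted p = 0.0286), and by 2.49 without knockout replicate 1.

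Against all RNA in the library the change of mt-7s was smaller. Its share of all counts was 1.45, 1.18, 1.56 and 1.17 ppm in controls and 2.32, 4.54, 2.42 and 3.60 ppm in knockouts. The means were 1.34 ± 0.197 and 3.22 ± 1.06 ppm (SD, n = 4 each; exact permutation test, p = 0.0286; adjusted p = 0.0286). When scaled by TMM, a scaling set mostly by the many nuclear genes, the levels were 2.05, 1.62, 2.27 and 1.59 CPM in controls and 2.25, 2.95, 1.50 and 2.39 CPM in knockouts. On that scale the groups overlapped: knockout replicate 3 lay below every control and knockout replicates 2 and 4 above every control. Its log2 fold change of 0.27 (standard error, SE, 0.22; 95% interval -0.20 to 0.74) did not pass (edgeR quasi-likelihood test, adjusted p = 0.320 over 17891 features tested). The interval spans 0 and reaches 0.74, so mt-7s was not shown to be constant. In that fit 50.0% of all features tested were called, 26.1% as higher and 23.9% as lower, and 45.4% had scaled levels that did not overlap between the groups. The authors' deposited table gives 0.28 with an SE of 0.24 and an adjusted p of 0.414 for mt-7s.

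Depth limited what mt-7s could show. The group totals were 143 counts in controls and 289 in knockouts, so that counting alone gives a spread of about 16.7% for a mean control library and 11.8% for a mean knockout library. Scaled to mtDNA counts, the control libraries spread no more than counting noise (chi-square per degree of freedom 0.684 over 3 degrees), while the knockout libraries spread far more (13.2). The 95% Wilson intervals of the share of mtDNA counts ran from 3.04 to 5.05 ppm in knockout replicate 1 and from 8.47 to 12.5 in knockout replicate 2, so these knockouts differed beyond counting error.

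mt-Nd6, the 1 mRNA of the light strand, went the other way. It held 1942, 2251, 2124 and 2389 counts in controls and 421, 403, 285 and 323 in knockouts, and no knockout library came near a control. As a share of mtDNA counts these were 98.4, 117, 109 and 121 ppm in controls and 28.0, 40.6, 34.2 and 35.5 ppm in knockouts. Its share fell from 111 ± 9.85 to 34.6 ± 5.21 ppm (SD, n = 4 each), 3.22-fold lower (exact permutation test, p = 0.0286; adjusted p = 0.0286). Counting error of mt-Nd6 was small beside this: the widest Wilson interval of a knockout library was 30.5 to 38.4 ppm, in replicate 3.

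**Figure D2:**
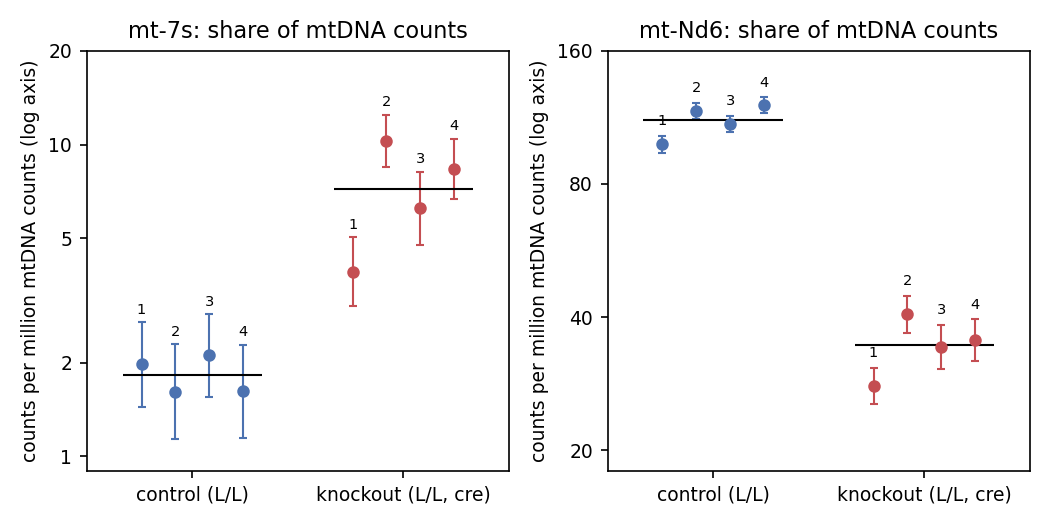
Counts of mt-7s (left) and mt-Nd6 (right) in ppm of mtDNA counts in each library (log axes), with bars for 95% Wilson intervals, numbers for replicates and lines for group means. The mean of mt-7s goes from 1.83 in controls to 7.20 in knockouts and that of mt-Nd6 from 111 to 34.6, without overlap between the groups in either panel.

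Relative to the nuclear RNA that came along with the mitochondria the loss of mt-Nd6 was larger. TMM-scaled levels were 102, 118, 117 and 119 CPM in controls and 16.1, 11.7, 8.21 and 10.2 CPM in knockouts. Knockout replicate 1, with the highest mtDNA part, also had the highest mt-Nd6 level of its group. The mean was 114 ± 7.94 CPM for controls and 11.5 ± 3.34 CPM for knockouts (SD, n = 4 each), and the log2 fold change of -3.31 (SE 0.16; 95% interval -3.65 to -2.98; edgeR, adjusted p = 1.39e-09) corresponds to a 9.95-fold lower level. It was -3.52 without knockout replicate 1. Of the 17891 features tested 64 had a lower fold change, or 0.358%. The fall on this scale was shared with the 10 heavy-strand mRNA features, which ran from -0.60 for mt-Nd5 to -3.32 for mt-Co1. The rRNA mt-Rnr2 fell too (-2.23), while the rRNA mt-Rnr1 rose (0.91). Scaled to mtDNA features alone, mt-Nd6 fell by less (-0.90, SE 0.08). The authors' deposited table gives -3.24 (SE 0.15). As a share of all counts it had 72.3, 85.6, 80.9 and 87.2 ppm in controls and 16.6, 17.9, 13.2 and 15.3 ppm in knockouts. This share fell 5.17-fold (exact permutation test, p = 0.0286; adjusted p = 0.0286).

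How much of the shift in their ratio fell to each RNA depended on the reference. Against heavy-strand mRNAs, mt-7s was 2.36 log2 units higher and mt-Nd6 1.22 log2 units lower in knockouts, since the difference for mt-Nd6 was -1.22. Against all features by TMM the values were 0.27 and -3.31, and in a fit of the mtDNA features alone, scaled to each other, they were 2.72 (SE 0.23) and -0.90 (SE 0.08). mt-Nd6 was called lower in both of these fits. mt-7s was called higher with library totals (1.26, adjusted p = 6.76e-05) and with mtDNA features alone (adjusted p = 2.66e-06), and was not called with TMM, RLE factors, nuclear genes alone or DESeq2 (adjusted p = 0.312 to 0.386). Library totals as the only scaling moved the median log2 fold change of all features to 0.97, against which the 1.26 of mt-7s is to be read.

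**Figure D3:**
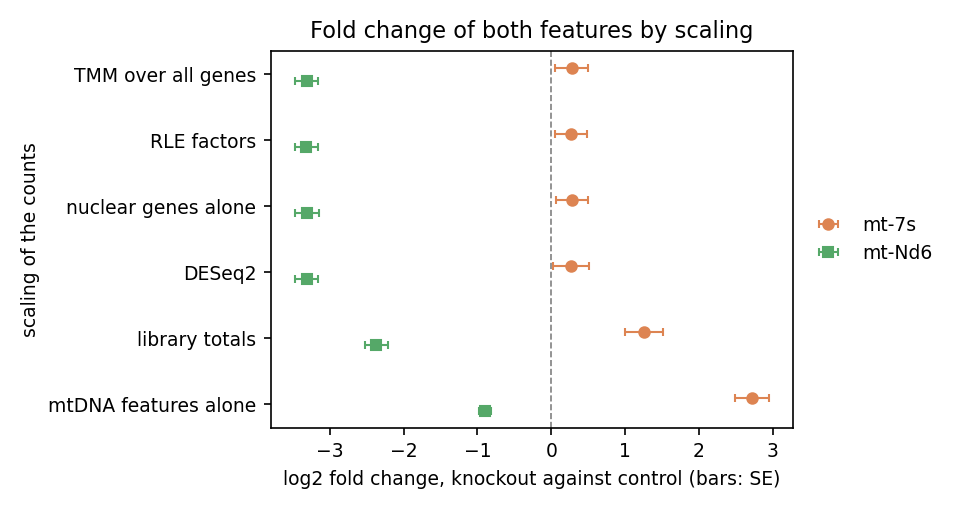
Log2 fold change of mt-7s (circles) and mt-Nd6 (squares), knockout against control, under 6 ways of scaling or testing the counts, with bars for the SE. mt-Nd6 is negative in each, from -3.32 to -0.90, and mt-7s goes from 0.27 to 2.72.

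mt-Nd6 lost ground to both genes that flank it, which are read from the other strand. Per 1000 counts of mt-Nd5, a complex I mRNA whose 3′ end meets that of mt-Nd6 in the 14 bases shown above, mt-Nd6 had 15.6, 17.2, 16.1 and 18.2 counts in controls and 3.10, 2.84, 1.94 and 2.30 in knockouts. The log2 ratio fell by 2.74 (exact permutation test, p = 0.0286; adjusted p = 0.0286). Per 1000 counts of mt-Cytb, the mRNA of cytochrome b on the other side, it had 6.90, 8.18, 7.87 and 8.61 counts in controls and 1.62, 1.64, 1.37 and 1.53 in knockouts. This log2 ratio fell by 2.35 (exact permutation test, p = 0.0286; adjusted p = 0.0286). In both cases all knockout libraries lay below all controls, in a series where 82.9% of all 105 pairs of tested mtDNA features did not overlap. Neighbouring positions on mtDNA thus held counts that changed by different amounts, with mt-Nd5 itself at 124236 to 132281 counts in the control libraries and 135660 to 147201 in the knockout libraries, and mt-Cytb at 269807 to 281438 and 207567 to 260078. Scaled by TMM both neighbours fell, mt-Nd5 by a log2 fold change of -0.60 (SE 0.11, edgeR, adjusted p = 0.000606) and mt-Cytb by one of -0.97 (SE 0.16, adjusted p = 0.000164).

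Per length mt-Nd6 was the lowest mRNA of mtDNA in each of the 8 libraries. Counted in ppm of mtDNA counts per kilobase of annotated length, it stood at 215 ± 19.0 for controls and 66.6 ± 10.03 for knockouts (SD, n = 4 each). mt-Nd5, the next lowest in all controls, stood 17.0 ± 1.15 times as high as mt-Nd6 per kilobase in controls and 116 ± 24.9 times as high in knockouts. In all knockouts the next lowest was mt-Nd3, another complex I mRNA, at 55.8 ± 1.67 times the level of mt-Nd6, against 35.0 ± 3.70 times in controls. The length of the mt-7s feature is not known here, so its level was not compared with that of other RNAs per length.

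Both RNAs were also set against each of the other 14 mtDNA features with enough counts to test. The log2 ratio of mt-7s was higher without overlap in knockouts for 13 of 14 features and overlapped for the other one. That of mt-Nd6 was lower without overlap for 12 of 14 and overlapped for the other 2. The median difference was 2.33 for mt-7s and -1.48 for mt-Nd6. Such separation was common: of all 105 pairs of tested mtDNA features 82.9% had ratios that did not overlap between the groups, so the counts alone set neither RNA apart. The differences of mt-7s ran from -0.58 against mt-Rnr1 to 3.61 against mt-Co1, and those of mt-Nd6 from -4.16 against mt-Rnr1 to 0.02 against mt-Co1.

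**Figure D4:**
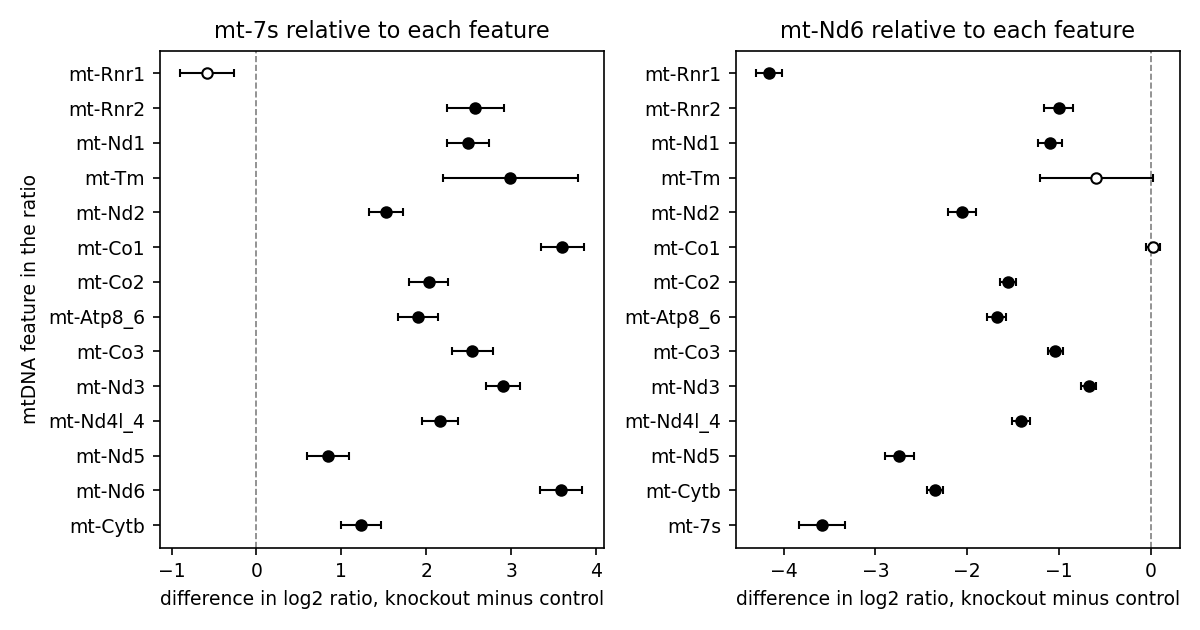
Difference between knockout and control means of the log2 ratio of mt-7s (left) or mt-Nd6 (right) to each other tested mtDNA feature, with bars for the SE over 4 libraries a group, and filled points where the groups do not overlap. The open points are mt-Rnr1 on the left (-0.58) and mt-Tm and mt-Co1 on the right (-0.59 and 0.02).

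The mtDNA feature most like mt-Nd6 across the libraries was mt-Co1, the heavy-strand mRNA of a cytochrome c oxidase subunit. Likeness was measured as the SD, over all 8 libraries, of the log2 ratio of the 2 counts, and was 0.0985 for mt-Co1, 0.376 for mt-Nd3 and 0.566 for mt-Co3. Per 1000 counts of mt-Co1 there were 1.29, 1.49, 1.40 and 1.54 counts of mt-Nd6 in controls and 1.37, 1.59, 1.43 and 1.40 in knockouts. The groups overlapped, with 1 control below and 1 knockout above the range of the other group, and with means of 1.43 ± 0.114 and 1.45 ± 0.0962 (SD, n = 4 each), although both RNAs fell about 10-fold relative to nuclear RNA (mt-Co1 at a log2 fold change of -3.32, SE 0.22). Among 8675 nuclear genes with a mean of at least 100 counts per library, the closest were Kcnj3, which encodes a potassium channel subunit (SD 0.157), Frem2 (0.259) and Crhr2, a corticotropin-releasing hormone receptor gene (0.317).

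The mtDNA features closest to mt-7s were mt-Rnr1, the small-subunit rRNA (SD 0.524), mt-Nd5 (0.553) and mt-Cytb (0.724). Relative to mt-Rnr1, mt-7s stood at 26.6, 22.3, 29.1 and 22.6 ppm in controls and at 9.60, 25.7, 15.4 and 21.1 ppm in knockouts. The groups overlapped through knockout replicate 2, and the other 3 knockouts lay below every control, replicate 1 farthest. mt-Rnr1 itself was higher in knockouts by TMM (log2 fold change 0.91, SE 0.26, edgeR, adjusted p = 0.0108), where mt-7s stood at 0.27. In the fit of mtDNA features alone mt-Rnr1 stood at 3.28 (SE 0.13) and mt-7s at 2.72, so a gain over other mtDNA RNA was not particular to mt-7s. Relative to mt-Nd5 it stood at 314, 237, 309.9 and 244 ppm in controls and 435, 719, 353 and 542 ppm in knockouts, a log2 difference of 0.84 without overlap. The nuclear genes closest to mt-7s were Gtf2e1, of a general transcription factor (SD 0.177), Eif3m, of a translation initiation factor (0.193), and Cyfip2 (0.198). With so few counts of mt-7s, counting error makes up much of the SDs to these nuclear genes, so their order is loose.

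The tRNAs of the light strand gave almost no counts and cannot place a change along the transcript. All 8 together held 16 counts in controls and 16 in knockouts, with 2 to 7 per control library and 0 to 9 per knockout library. mt-Tn, for asparagine, held 9 and 6 counts, and mt-Ts1, a serine tRNA, 6 and 2. mt-Ty, for tyrosine, held none in any library, which allows a share of up to 0.0249 ppm of mtDNA counts over all libraries. mt-Tp and mt-Te, which lie between the control region and mt-Nd6, held 2 counts and 1 count, all in knockouts. A difference was not detectable with so few counts, and why the counts were so few was not tested.

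Nuclear genes whose proteins act on mtDNA transcription and on light-strand RNA moved less than mt-Nd6. By TMM the tested genes of the list had log2 fold changes from -0.54 (Fastkd1) to 0.77 (Pde12). On the same scale mt-Nd6 stood at -3.31 and mt-7s at 0.27, so some listed genes moved more than mt-7s. Of 33 listed genes 32 were tested, of which 11 rose and 5 fell (edgeR, adjusted over all features). The other 16 were not called, beside 8947 of all 17891 features tested. Over all features 26.1% were called higher and 23.9% lower, so rises made up more of the calls in the list. This difference in split was not tested. The median log2 fold change of the listed genes was 0.09 against -0.01 for all features tested. With library totals as the only scaling 31 were higher and 0 lower. Of the 7 tested genes of initiation and elongation 1 rose, Tfb2m, a transcription initiation factor (0.31, SE 0.09). Polrmt, the mitochondrial RNA polymerase, did not pass (-0.18, SE 0.09, adjusted p = 0.130; 0.82 with library totals). Tefm did not pass either. Its mean level was 6.23 ± 0.639 CPM for controls and 6.85 ± 0.595 CPM for knockouts (SD, n = 4 each; log2 fold change 0.14, SE 0.11, adjusted p = 0.323; 1.13 with library totals), so the gene count did not show the deletion. Which exon was removed is not stated in the labels.

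Of 8 genes of replication, which starts from light-strand promoter RNA, 2 rose and 3 fell, beside 26.1% higher and 23.9% lower over all features. Rnaseh1, an enzyme that removes RNA from RNA-DNA hybrids, rose (0.70, SE 0.22, adjusted p = 0.0147; adjusted p = 0.0518 without control replicate 3), and so did the ligase gene Lig3 (0.22, SE 0.07), whose call was lost without control replicate 1 or 3 or knockout replicate 4 (adjusted p = 0.0540 to 0.0719). Mgme1, a mitochondrial exonuclease (-0.49, SE 0.11), and Twnk, the replicative helicase (-0.32, SE 0.09), fell, but stood at 0.50 and 0.68 with library totals.

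Of 10 genes of RNA processing 5 rose and 2 fell, and of 7 genes of stability and decay 3 rose and none fell, against the same shares of 26.1% and 23.9% over all features. Elac2, which cuts the 3′ ends of tRNAs, rose (0.76, SE 0.10, adjusted p = 3.52e-05), as did Trmt10c, a subunit of the enzyme that cuts their 5′ ends (0.38, SE 0.08). Fastk, whose mitochondrial form is known to be needed for ND6 mRNA, fell (-0.31, SE 0.08, adjusted p = 0.00403), and its relative Fastkd1 fell as well (-0.54, SE 0.11). With library totals these stood at 0.67 and 0.47. The genes of stability and decay that rose were Pde12, a deadenylase (0.77, SE 0.09), Rexo2, an oligoribonuclease (0.69, SE 0.09), and Grsf1, which binds G-rich light-strand RNA such as that of ND6 (0.21, SE 0.07, adjusted p = 0.0163).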

How the data were processed

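Total RNA of crude heart mitochondria was extracted with a miRNeasy kit, made into Illumina TruSeq libraries and sequenced in paired ends on a MiSeq, per the labels' protocols. The deposited files hold raw counts per feature, 1 library per mouse. Per the submitters' processing notes, which give no role or order, the tools were DESeq2 1.14.1, R 3.3.2, featureCounts, bedtools, SAMtools 1.3.1 and Bowtie2, with mm10. The labels do not state if rRNA was removed. For each feature the authors' deposited table holds log2 fold changes and SEs, p-values, a test score and the mean normalized signal. The deposited normalized values were not used.

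Counts of all features were tested with edgeR 4.0.16 in R 4.3.3 (quasi-likelihood F test, TMM, filterByExpr with a minimum count of 10, two-sided, Benjamini-Hochberg at 0.05). The fit was checked on simulated counts, which did not model the shift in the mtDNA part between the groups. An SE is the log2 fold change divided by the square root of F. Ratios and shares per library were compared by exact permutation (scipy 1.17.1), with 0.5 added to counts before log2. Alternatives were DESeq2 1.42.0, other scalings and denominators, no filter, a replicate block, and leaving out each library. Libraries of a group differed by more than counting noise (chi-square per degree of freedom at least 2.42), so none was counted as a duplicate. Sequences and positions are from GENCODE M21 (GRCm38). Named were both RNAs, tested mtDNA features, light-strand tRNAs, the 3 mtDNA and 3 nuclear features of most like pattern, and from each role of the factor list the 2 called genes of smallest p in each direction, with Tefm, Polrmt, Grsf1 and Fastk in any case. The members, lists and tests were chosen with earlier results of these data known.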

Additional observations from a re-analysis of the deposited data

Results flagged for a closer look

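Among 22 group-wise sets of 4 values of mt-7s and mt-Nd6, 1 held a library far from the other 3: the TMM-scaled level of mt-Nd6 was 102 CPM in control replicate 1 and 117 to 119 CPM in the other controls. The gap was 0.907 of the range of the group. Chance alone puts about 1 in 20 such groups past this limit. Without control replicate 1 the log2 fold change of mt-Nd6 was -3.37 (edgeR, adjusted p = 2.04e-08).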

How the results depend on the processing

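mt-Nd6 was lower and passed in every edgeR and DESeq2 alternative run (adjusted p = 9.48e-95 to 3.01e-06), with -3.52 to -3.18 when 1 library was left out. mt-7s stayed positive, at 0.12 to 0.44 with 1 library left out (adjusted p = 0.0825 to 0.689; lowest without knockout replicate 2, highest without knockout replicate 3). It passed at 1.26 with library totals and at 2.72 with mtDNA features alone, where the scaling reference itself changed. With library totals 14065 features were called higher and 480 lower, against 4670 and 4274 by TMM, and of the factor list 31 and 0 against 11 and 5. With 1 library left out 4306 to 4909 features were higher and 3818 to 4716 lower, and 8 to 11 and 4 to 6 of the factor list. Library totals turned the values of Polrmt (0.82), Twnk (0.68), Mgme1 (0.50), Fastk (0.67) and Fastkd1 (0.47).

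The direction and the exact permutation p of 0.0286 were kept by the 5 log2 ratios with 5 instead of 0.5 added to counts, by the 2 shares of mtDNA counts with other denominators, and by the 2 ratios to heavy-strand mRNAs with equal weight for each mRNA. With 1 library left out that p cannot go below 0.0571, which all 9 ratios and shares reached. The differences then ran from 3.47 to 3.75 for the log2 ratio of mt-7s to mt-Nd6, 4.34 to 6.47 and -81.1 to -73.7 ppm of mtDNA counts and 1.44 to 2.18 and -68.8 to -63.8 ppm of all counts for mt-7s and mt-Nd6, 2.20 to 2.49 and -1.27 to -1.17 against heavy-strand mRNAs, and -2.84 to -2.62 and -2.42 to -2.30 for mt-Nd6 against mt-Nd5 and mt-Cytb.

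The replicate numbers did not pair the libraries: deviations of same-numbered libraries correlated at -0.00602 to 0.0799, and 1 of 4 controls matched its own number best. With the replicate block edgeR gave 0.26 for mt-7s and -3.34 for mt-Nd6, with 4580 features higher and 4253 lower. Pairing by number left the differences at 3.58, 5.37, -76.8, 1.88, -65.7, 2.36, -1.22, -2.74 and -2.35 in the order above, at an exact p of 0.125, the smallest that 4 pairs allow. Low counts limit what can be said of mt-7s, with 31 to 102 counts per library, and of the light-strand tRNAs.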
